A study of Mus musculus with 14 samples.

Results

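Macrophage, neutrophil and lymphocyte genes were followed through RNA-seq of 14 primary small cell lung cancers of the mouse. The 36 genes were a fixed set of cell markers, of 23284 genes in the files, and all 36 were found by symbol: 16 of macrophages, 5 of neutrophils, 13 of T and natural killer (NK) cells and 2 of B cells. Each tumour came from a genetically engineered mouse, and all 14 tumours carry the genotype Rb1/Trp53, the controls included, which removes 2 tumour suppressors. In 7 of them, labelled Rbp53SCLC and called RP here, that is the whole genotype. The other 7, labelled Rbp53CrebbpSCLC and called RPC, have the genotype Rb1/Trp53/Crebbp with the histone acetyltransferase gene Crebbp deleted as well. The labels say nothing of the Cre driver, the strain, the age of the mice, the cells in which the genes were deleted, or whether any tumours shared a mouse. Levels are given as CPM, the count of a gene for each 1000000 counts assigned to genes in that library.

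Tumours hold blood-derived cells among the cancer cells, and RNA from a whole tumour mixes both. Many macrophages depend on the growth factor receptor Csf1r. Macrophages take up debris and complement-coated particles, and in the lung include resident alveolar macrophages that clear surfactant. Neutrophils are short-lived granulocytes drawn in by CXC chemokines, T cells read antigen through the receptor complex that contains Cd3, NK and cytotoxic T cells kill through granzymes and perforin, and B cells signal through Cd79a and Cd79b. In bulk RNA, fewer cells of a type and less RNA per cell cannot be told apart.

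The libraries held between 10965714 and 23678648 gene counts in RP and between 10060969 and 24052799 in RPC. Crebbp was at 98.1, 70.8, 63.3, 73.1, 93.7, 59.8 and 84.7 CPM in RP tumours 1 to 7 and at 54.8, 65.5, 62.4, 68.3, 66.2, 63.7 and 66.5 CPM in RPC tumours 1 to 7. The ranges overlapped, and counts over the whole gene do not show whether the deleted part is missing. RPC tumours 3, 5 and 6 (called by their numbers below) stood apart from the other 11 libraries by the very genes described here. Where given, their values are therefore shown one by one, as a range or as a maximum, with no test and no mean of the 3. Neuroendocrine tumour genes, which mark the cancer cells, summed to 3807, 2538 and 4012 CPM in them and to between 2079 and 9813 CPM in the other 11.

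Macrophage genes took most of the reads of the 36 genes in 11 of the 14 tumours and had few reads in the other 3. The 16 macrophage genes together reached 1218, 1042, 585, 1440, 779, 1058 and 1891 CPM in RP tumours 1 to 7. In RPC tumours 1, 2, 4 and 7 the sums were 591, 2390, 543 and 922 CPM, a range that contains the RP range. In RPC tumours 3, 5 and 6 they were 5.57, 8.26 and 8.10 CPM. Lyz2, lysozyme of macrophages and of some alveolar epithelial cells, supplied between 13.3% and 58.8% of the sum in the 11 tumours, and without it the sums ran from 380 to 1198 CPM there and from 4.44 to 7.13 CPM in RPC 3, 5 and 6.

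**Figure D1:**
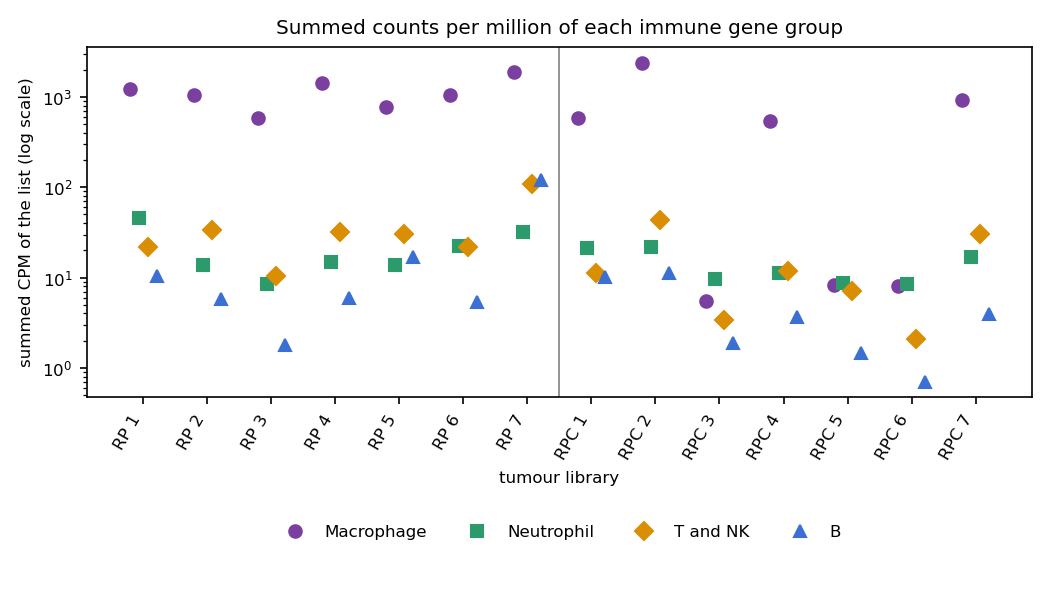
Summed CPM of the macrophage (circles), neutrophil (squares), T and NK (diamonds) and B (triangles) genes in each library, on a log scale, with 1 point per list and library. Macrophage sums lie between 543 and 2390 CPM in 11 libraries and between 5.57 and 8.26 CPM in RPC tumours 3, 5 and 6.

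Csf1r, the receptor for colony stimulating factor 1 on which many macrophages depend, had a lowest, median and highest level of 28.1, 35.7 and 64.3 CPM in RP. It was at 29.4, 52.7, 38.6 and 22.7 CPM in RPC tumours 1, 2, 4 and 7, and at 0.20, 0 and 0 CPM in RPC 3, 5 and 6, the first of these being 2 reads. Outside RPC 3, 5 and 6 the groups overlapped, with RP 7 highest and RPC 7 lowest. C1qa, a chain of the complement component C1q that macrophages secrete, was at 49.2, 96.4 and 160 CPM (lowest, median, highest) in RP. In RPC tumours 1, 2, 4 and 7 it was at 63.5, 141, 84.9 and 51.2 CPM, and in RPC 3, 5 and 6 at 0, 0 and 0.088 CPM. The other chains, C1qb and C1qc, ran from 42.3 to 165 and from 43.9 to 148 CPM in the 11 tumours and reached at most 0.30 and 0.052 CPM in RPC 3, 5 and 6.

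The C1q chains kept nearly fixed proportions to Csf1r across the 11 tumours. The ratio of C1qc to Csf1r varied by 1.44 times between the lowest and the highest tumour, that of C1qb by 1.51 times and that of C1qa by 1.71 times. Fcgr3, a low-affinity receptor for antibody complexes, followed at 1.72 times, and Cd68, a lysosomal membrane protein, at 2.37 times. RP 7 and RPC 2 had the highest level of each of these genes. Tyrobp, a signalling adaptor of myeloid receptors, varied 3.24 times against Csf1r, Emr1 (the F4/80 antigen) 3.26 times, and Ctss (the lysosomal protease cathepsin S) 3.34 times.

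Tyrobp was at 19.2, 31.5 and 43.6 CPM (lowest, median, highest) in RP, at 19.8, 44.0, 15.3 and 17.7 CPM in RPC tumours 1, 2, 4 and 7, and at 0 in RPC 3, 5 and 6. Ctss was at 74.2, 137 and 245 CPM in RP and at 83.4, 281, 61.6 and 96.8 CPM in RPC tumours 1, 2, 4 and 7. Its highest tumour was RPC 2 and its lowest outside RPC 3, 5 and 6 was RPC 4. RPC 4 also had the lowest ratio to Csf1r of Cd68, Itgax, Lyz2, Tyrobp and Ctss. Itgax, the CD11c integrin shared by alveolar macrophages and dendritic cells, was at 8.22 CPM there against 21.8 to 59.95 CPM in the other 10. Mrc1, the mannose receptor, was by contrast at 36.8 CPM in RPC 4, second only to 45.1 CPM in RP 1, and ran from 7.86 to 29.0 CPM in the other 9.

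**Figure D2:**
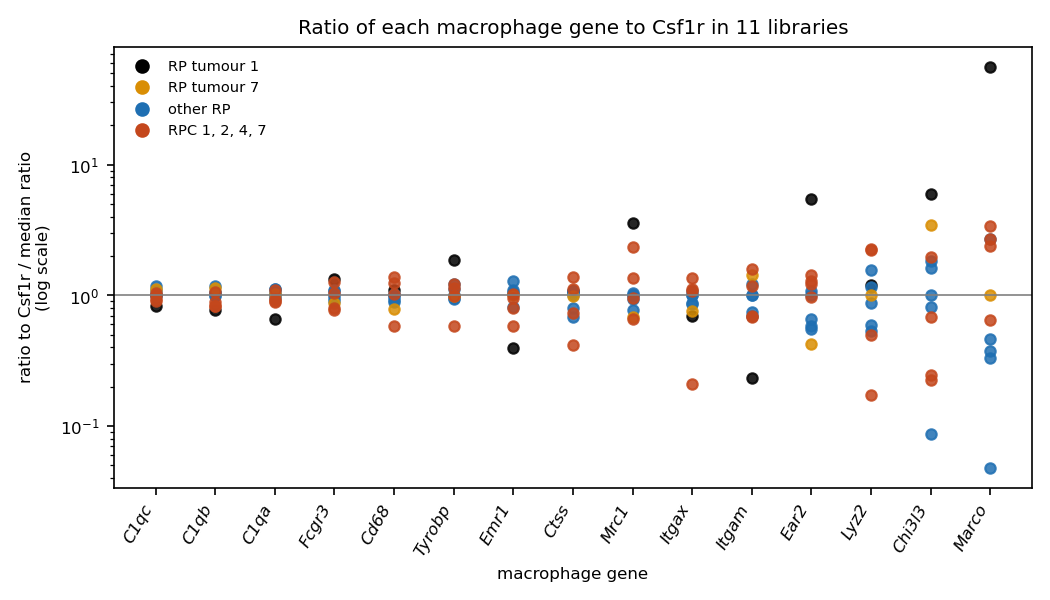
Ratio of each macrophage gene to Csf1r in 11 libraries (all but RPC tumours 3, 5 and 6), divided by its median ratio, on a log scale, with 1 point per library. The C1q genes at the left vary by at most 1.71 times, while Marco at the right varies by 1161 times, with RP tumour 1 far above the rest.

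Marco and Chi3l3 varied most against Csf1r. Marco, a scavenger receptor of alveolar macrophages, was at 184 CPM in RP 1 and at 0.18, 1.13, 11.8, 1.72, 1.33 and 6.82 CPM in RP tumours 2 to 7. It was at 8.398, 19.1, 9.79 and 1.56 CPM in RPC tumours 1, 2, 4 and 7, so that all but RP 1 lay at or under 19.1 CPM. Against Csf1r its level varied 1161 times over the 11 tumours, and that of Chi3l3 68.3 times. Lyz2 followed at 13.1 times, Ear2 at 12.8, Itgam at 6.78, Itgax at 6.502 and Mrc1 at 5.45 times.

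Chi3l3, the secreted chitinase-like protein Ym1 of alternatively activated macrophages, reached 135 and 164 CPM in RP 1 and RP 7. It was at 21.2, 1.802, 55.3, 25.4 and 44.3 CPM in RP tumours 2 to 6 and at 5.32, 75.9, 6.33 and 11.4 CPM in RPC tumours 1, 2, 4 and 7. RP 3 was thus the lowest of the 11, below every RPC tumour other than 3, 5 and 6. Ear2, an eosinophil-associated ribonuclease also made by alveolar macrophages, was at 11.2 CPM in RP 1. Its level was between 1.38 and 2.31 CPM in the other 6 RP tumours, at 2.54, 4.30, 2.47 and 2.14 CPM in RPC tumours 1, 2, 4 and 7, and at 0 in RPC 3, 5 and 6. Ear2, Chi3l3, Lyz2 and Fcgr3 have close relatives in the mouse genome, so their counts depend on how reads shared between copies were treated.

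RP 1 combined the highest Marco, Ear2 and Mrc1 with the lowest Emr1 (5.77 CPM) and Itgam (1.83 CPM, the CD11b integrin). Emr1 ran from 10.1 to 30.1 CPM and Itgam from 3.99 to 23.2 CPM in the other 10 tumours. Lyz2 was at 163, 404 and 703 CPM (lowest, median, highest) in RP and at 158, 1296, 72.3 and 542 CPM in RPC tumours 1, 2, 4 and 7. Markers of alveolar type 2 cells, some of which express Lyz2, summed to 2628 and 6.74 CPM in RPC 2 and RPC 4, the tumours with the highest and the lowest Lyz2 of the 11, and to 1009 CPM in RP 1. The part of alveolar cells in the Lyz2 values was not tested.

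**Figure D3:**
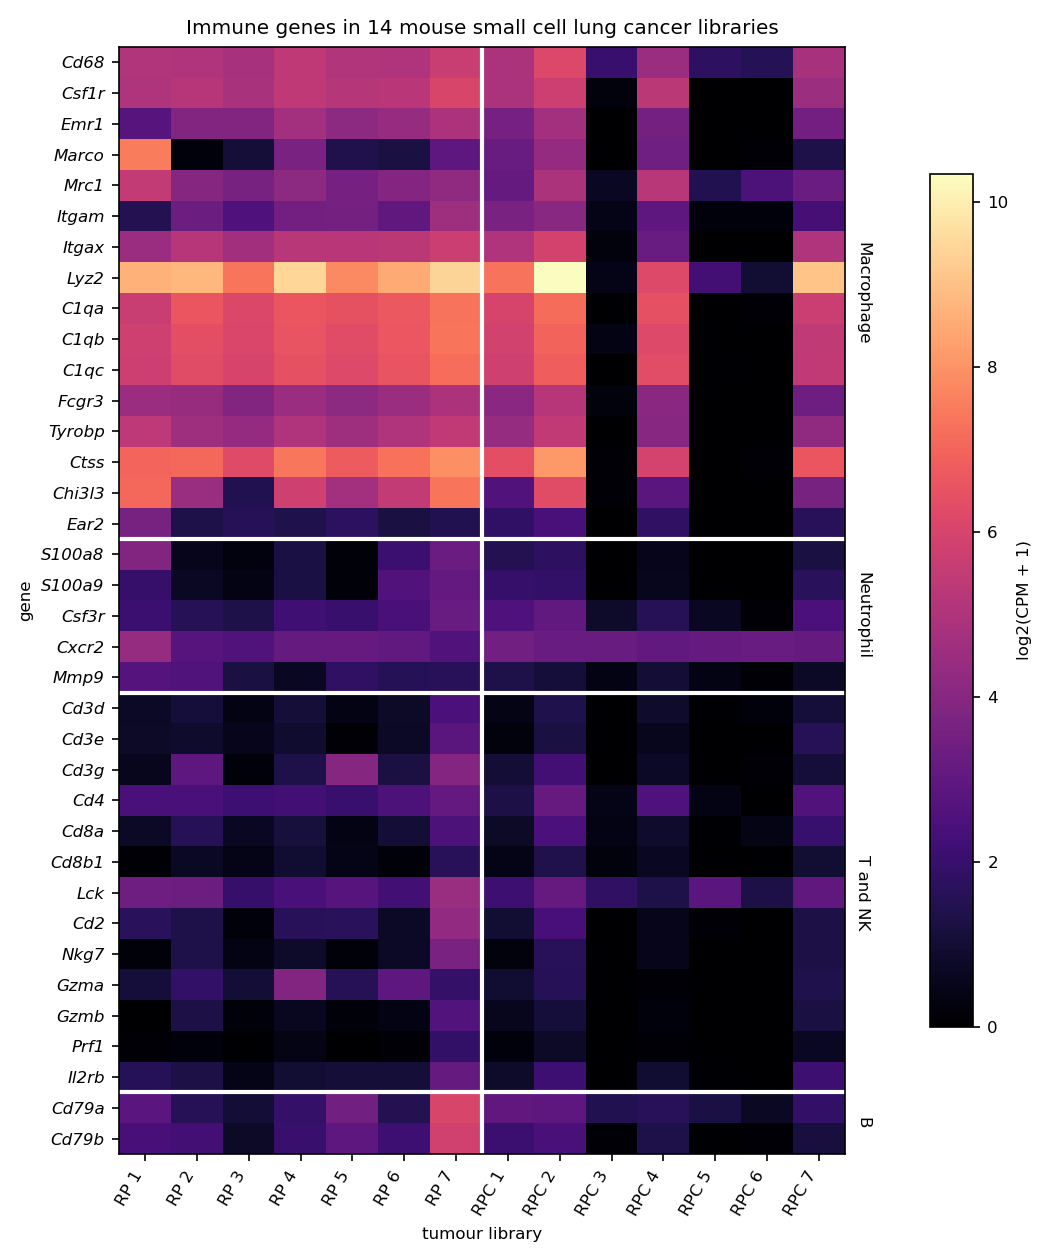
Level of each of the 36 genes in each library as log2(CPM + 1), from black (0) to pale yellow (highest), with genes in rows grouped by cell type and libraries in columns. The columns of RPC tumours 3, 5 and 6 are dark for all macrophage genes, RP 7 is brightest for most lymphocyte genes, and Cxcr2 is alike in nearly every column.

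The 3 tumours with few immune reads lacked nearly all of the set. RPC 3, 5 and 6 had no read for 17, 21 and 20 of the 36 genes and at most 3 reads for 27, 27 and 29 of them, while no other library had no read for more than 1. A count of 0 allows up to 0.298, 0.155 and 0.264 CPM at their depths, which covers counting error only. All 3 lay below every other library for 29 of the 36 genes: 16 of 16 macrophage, 4 of 5 neutrophil, 8 of 13 T and NK and 1 of 2 B cell genes. Of the 30 members with enough reads to be tested for genotype, 26 showed this order, against 9.40% of all 14804 genes tested. The 3 tumours are known by these genes, so these counts are a description.

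Some genes remained readable in these tumours. Cd68 was at 3.08, 2.43 and 1.94 CPM in RPC 3, 5 and 6 against at least 21.8 CPM elsewhere. Mrc1 was at 0.60, 1.81 and 4.75 CPM and Lyz2 at 0.40, 3.82 and 0.97 CPM, while Emr1 and Tyrobp were at 0 in all 3. Lgmn, a lysosomal protease of macrophages and other cells that is not among the 36, was at 68.9, 77.8 and 44.3 CPM against 103 to 212 CPM in the other 11. Sfpi1, which encodes the macrophage transcription factor PU.1, was at 0.099, 0 and 0 CPM against 5.33 to 23.0 CPM.

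The low immune RNA went with low RNA of other stromal cells in RPC 3 and 6, and in RPC 5 only for part of the markers. The 6 fibroblast genes summed to 3.28, 120 and 5.46 CPM in RPC 3, 5 and 6 and to between 221 and 878 CPM in the other 11. In RPC 5 the collagen genes Col1a1, Col1a2 and Col3a1 were nonetheless at 0.36, 0.10 and 0 CPM, and Dcn was at 0.31 CPM. Pdgfra and Lum were instead at 111 and 7.64 CPM there, above the highest of the other 11 (60.7 and 5.63 CPM). The 6 endothelial genes summed to 6.96, 81.0 and 1.94 CPM against 44.0 to 284 CPM. In RPC 5 Kdr alone was at 78.8 CPM, above the 5.76 to 34.3 CPM of the other 11. The endothelial cadherin Cdh5 was at 0 in all 3 against 9.87 to 104 CPM. The part of stromal content in the immune values was not tested.

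Promoter sequences of macrophage genes are shown because all 16 macrophage genes were low together in RPC 3, 5 and 6, and PU.1 is a known regulator of macrophage genes; in the other 11 tumours Mrc1 and Itgam did not share an order. Promoters were found for 26 of the 36 genes in the RefSeq promoter table (build GRCm38.p6). The PU.1 core GAGGAA was searched on both strands in the 250 bases upstream of the start. It was present in 9 of 13 macrophage promoters (69.2%), 3 of 4 neutrophil promoters and 4 of 10 T and NK promoters (40%). The 1 B cell promoter, of Cd79a, also matched. Among promoters of all genes it was present in 7639 of 32851 (23.3%). Fcgr3 has 2 of the 13 macrophage promoters, and both hold the same TTCCTC. Counted by gene, 8 of 12 macrophage genes matched, against 6986 of 27025 of all genes. The RUNX core TGTGGT, which belongs to factors active in T cells and shares no overlap with the other motif, was in 2 of 13 macrophage (15.4%), 5 of 10 T and NK (50%) and 14.05% of all promoters. Some genes have several promoters in the table, and a match is a description of letters, not a binding site. Windows are shown only for macrophage genes with a GAGGAA match within 100 bases of the start, so they are not typical of the list. Marco, Ctss, C1qc and Cd68 matched only farther upstream, at 146, 164, 193 and 225 bases. Itgax, Lyz2, Chi3l3 and Ear2 had no match in the 250 bases. The windows below hold the 100 bases just upstream of the start on the strand of the gene, with capitals marking GAGGAA or, where the match is on the other strand, TTCCTC. They lie at chr4:136886201-136886300 (minus strand, C1qb), chr2:14229314-14229413 (plus strand, Mrc1), chr7:128062540-128062639 (plus strand, Itgam) and chr1:171059404-171059503 (minus strand, Fcgr3).
C1qb: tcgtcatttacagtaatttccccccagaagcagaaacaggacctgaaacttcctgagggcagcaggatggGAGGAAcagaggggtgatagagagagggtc
Mrc1: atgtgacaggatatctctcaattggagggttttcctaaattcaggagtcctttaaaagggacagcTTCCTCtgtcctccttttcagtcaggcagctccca
Itgam: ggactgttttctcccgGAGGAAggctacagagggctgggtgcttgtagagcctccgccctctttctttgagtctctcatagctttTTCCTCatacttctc
Fcgr3: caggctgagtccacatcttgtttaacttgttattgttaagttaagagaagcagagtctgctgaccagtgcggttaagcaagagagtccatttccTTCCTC
The match lay 30 bases before the start in C1qb, 35 in Mrc1, 84 and 15 in Itgam and 6 in Fcgr3.

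The 5 neutrophil genes summed to 8.56, 14.8 and 45.8 CPM (lowest, median, highest) in RP, to 21.2, 21.8, 11.3 and 16.7 CPM in RPC tumours 1, 2, 4 and 7, and to 9.54, 8.73 and 8.45 CPM in RPC 3, 5 and 6. S100a8, which encodes a calprotectin chain stored in neutrophils, was at 13.95 CPM in RP 1 and 8.83 CPM in RP 7, and at 0.46, 0.23, 1.44, 0.15 and 3.26 CPM in RP tumours 2 to 6. It was at 1.83, 2.38, 0.41 and 1.36 CPM in RPC tumours 1, 2, 4 and 7 and at 0 in RPC 3, 5 and 6. The partner chain, S100a9, had a lowest, median and highest level of 0.15, 1.44 and 7.45 CPM in RP and was at 2.87, 2.65, 0.49 and 2.24 CPM in RPC tumours 1, 2, 4 and 7. In RP 1 it was at 2.92 CPM, so that RP 1 was highest for S100a8 but RP 7 for S100a9.

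Csf3r, the receptor for granulocyte colony stimulating factor, was at 1.58, 3.29 and 8.32 CPM (lowest, median, highest) in RP. In RPC tumours 1, 2, 4 and 7 it was at 4.95, 7.22, 2.06 and 4.57 CPM, within the RP range, and in RPC 3, 5 and 6 at 0.80, 0.57 and 0.088 CPM. Mmp9, a gelatinase of neutrophil granules that macrophages also make, was at 5.70, 5.02, 1.35, 0.59, 2.46, 1.97 and 2.13 CPM in RP tumours 1 to 7. It was at 1.54, 1.19, 1.07 and 0.68 CPM in RPC tumours 1, 2, 4 and 7 and at 0.30, 0.31 and 0.088 CPM in RPC 3, 5 and 6. RP 4 was the only RP tumour below all of RPC 1, 2, 4 and 7.

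Cxcr2, the chemokine receptor that draws neutrophils, did not follow the others. It was at 8.45, 7.85 and 8.27 CPM in RPC 3, 5 and 6, where S100a8 and S100a9 were at 0, and between 7.32 and 9.98 CPM in the other RPC tumours. In RP it was at 19.9 CPM in RP 1 and between 5.01 and 7.91 CPM in the other 6. Ltf, lactoferrin of neutrophil granules and of airway glands, was also highest in RP 1, at 153 CPM, with at most 17.1 CPM elsewhere.

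T and NK genes summed to 21.8, 33.5, 10.3, 32.2, 30.6, 21.9 and 110 CPM in RP tumours 1 to 7. The sums were 11.2, 43.0, 11.9 and 30.6 CPM in RPC tumours 1, 2, 4 and 7, and 3.38, 7.02 and 2.11 CPM in RPC 3, 5 and 6. RP 7 was highest, RPC 2 next, and the rest of the 11 overlapped. Lck, a kinase of T cell receptor signalling, supplied 73.5%, 91.9% and 70.8% of the sum in RPC 3, 5 and 6, with 2.48, 6.45 and 1.496 CPM there. Its level was 2.85, 5.89 and 21.2 CPM (lowest, median, highest) in RP and 3.41, 7.95, 1.56 and 7.10 CPM in RPC tumours 1, 2, 4 and 7, so RPC 3 and RPC 5 were inside the range of the other 11.

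Cd3e, a chain of the T cell receptor complex, gave a narrower count of T cell RNA. It was at 0.73, 0.82, 0.45, 0.89, 0.075, 0.69 and 6.45 CPM in RP tumours 1 to 7, at 0.21, 1.37, 0.49 and 2.04 CPM in RPC tumours 1, 2, 4 and 7, and at 0 in RPC 3, 5 and 6. RP 7 was above every other tumour, RPC 7 and RPC 2 followed, and RP 5 had 1 read. Cd8a, the co-receptor of cytotoxic T cells, was at 0.30, 1.06 and 4.69 CPM (lowest, median, highest) in RP and at 0.75, 4.66, 0.82 and 3.01 CPM in RPC tumours 1, 2, 4 and 7. RP 7 and RPC 2 were nearly equal for it. In RPC 3, 5 and 6 Cd8a was at 0.30, 0.052 and 0.35 CPM, from 3, 1 and 4 reads, so RPC 6 lay above RP 5. Cd8b1 ran from 0.073 to 2.07 CPM over the 11 tumours, highest in RP 7 and then RPC 2.

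Cd4, the co-receptor of helper T cells, which mouse macrophages and dendritic cells can also express, varied less. It was at 3.13, 4.29 and 7.51 CPM (lowest, median, highest) in RP, at 1.497, 8.04, 4.93 and 5.25 CPM in RPC tumours 1, 2, 4 and 7, and at 0.40, 0.31 and 0 CPM in RPC 3, 5 and 6. Cd3d, another chain of the receptor complex, lay between 0.30 and 4.63 CPM in the 11 tumours, and Il2rb, a receptor chain for interleukins 2 and 15, between 0.38 and 7.76 CPM, both highest in RP 7.

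Cd3g and Gzma broke the order set by Cd3e. Cd3g, the third chain named CD3, was at 14.8 CPM in RP 5 from 199 reads, where Cd3e had 1 read, and at 14.5 CPM in RP 7 and 6.66 CPM in RP 2. It was between 0.15 and 1.52 CPM in the other 4 RP tumours, at 1.04, 3.84, 0.66 and 1.17 CPM in RPC tumours 1, 2, 4 and 7, and at 0, 0 and 0.088 CPM in RPC 3, 5 and 6. Zap70, a kinase recruited by the same receptor, was likewise highest in RP 5, at 35.1 CPM against 1.13 to 16.5 CPM in the other RP tumours. Gzma, a granzyme of NK and cytotoxic T cells, was at 13.8 CPM in RP 4 from 326 reads and at 6.66 CPM in RP 6. It lay between 1.05 and 2.82 CPM in the other 5 RP tumours, at 0.91, 2.01, 0.082 and 1.65 CPM in RPC tumours 1, 2, 4 and 7, and at 0 in RPC 3, 5 and 6.

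The other cytotoxic genes were highest in RP 7. Nkg7, a granule membrane protein, was at 11.9 CPM in RP 7, between 0.15 and 1.55 CPM in the other 6 RP tumours and at 0.21, 2.10, 0.41 and 1.46 CPM in RPC tumours 1, 2, 4 and 7. Gzmb, the granzyme that activates caspases, was at 5.45 CPM in RP 7 and at most 1.46 CPM elsewhere, with 0.55 CPM in RP 4 and 0.32 CPM in RP 6, the tumours with most Gzma. Prf1, perforin, was at 2.69 CPM in RP 7 and at most 0.73 CPM elsewhere. Cd2, an adhesion receptor of T and NK cells, was at 18.2 CPM in RP 7 and at most 4.20 CPM in any other tumour.

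The B cell genes summed to 122 CPM in RP 7 and to at most 16.8 CPM in any other tumour. Cd79a, a signalling chain of the B cell receptor, was at 6.28, 2.01, 1.05, 2.83, 10.1, 1.84 and 65.1 CPM in RP tumours 1 to 7. It was at 6.94, 6.85, 2.14 and 2.72 CPM in RPC tumours 1, 2, 4 and 7 and at 1.79, 1.45 and 0.62 CPM in RPC 3, 5 and 6, above the level of RP 3 in 2 of these. Cd79b, its partner, was at 4.16, 3.83, 0.75, 3.08, 6.71, 3.49 and 56.9 CPM in RP tumours 1 to 7, at 3.24, 4.39, 1.56 and 1.26 CPM in RPC tumours 1, 2, 4 and 7, and at 0.099, 0 and 0.088 CPM in RPC 3, 5 and 6. Ms4a1, the surface protein CD20, was also highest in RP 7, at 55.5 CPM, with RP 5 next at 6.34 CPM. Igj, the joining chain of plasma cells, had another order: 142 CPM in RPC 2, 98.0 CPM in RP 4 and 87.9 CPM in RPC 7, but 14.8 CPM in RP 7.

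Macrophage reads were set against lymphocyte reads within each tumour. The value depends on gene lengths and on how many genes each list holds, so it is compared only between tumours. Macrophage genes took 87.8% of the reads of the 36 genes in RP 7 (95% Wilson interval 87.4% to 88.1%) and between 92.7% and 96.9% in the other 10 tumours with many immune reads. In RPC 3, 5 and 6 they took 27.3% (21.7% to 33.8%, 56 of 205 reads), 32.5% (28.5% to 36.7%, 160 of 493) and 41.8% (35.5% to 48.4%, 92 of 220), where Cxcr2 and Lck made up much of the rest. These intervals cover counting error only. The ratio of macrophage to T and NK sums was 17.2 in RP 7, the lowest of the 11, then 25.5 in RP 5, 30.1 in RPC 7 and 31.1 in RP 2. The place of RP 5 rests largely on Cd3g, which supplied 14.8 of its 30.6 CPM of T and NK genes, while Cd3e had 1 read there. The ratio lay between 44.7 and 56.9 in the remaining 7 of the 11, both genotypes among them. It was 1.65, 1.18 and 3.83 in RPC 3, 5 and 6. Against T, NK and B genes together it was 8.16 in RP 7 and between 16.5 and 48.4 in the other 10. Lyz2 is part of these macrophage sums, so the spread of the shares and ratios depends in part on it. Without Lyz2 the macrophage sum fell from 922 to 380 CPM in RPC 7, from 2390 to 1094 CPM in RPC 2. In RP 7 it fell from 1891 to 1198 CPM, and in RPC 4 from 543 to 471 CPM.

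**Figure D4:**
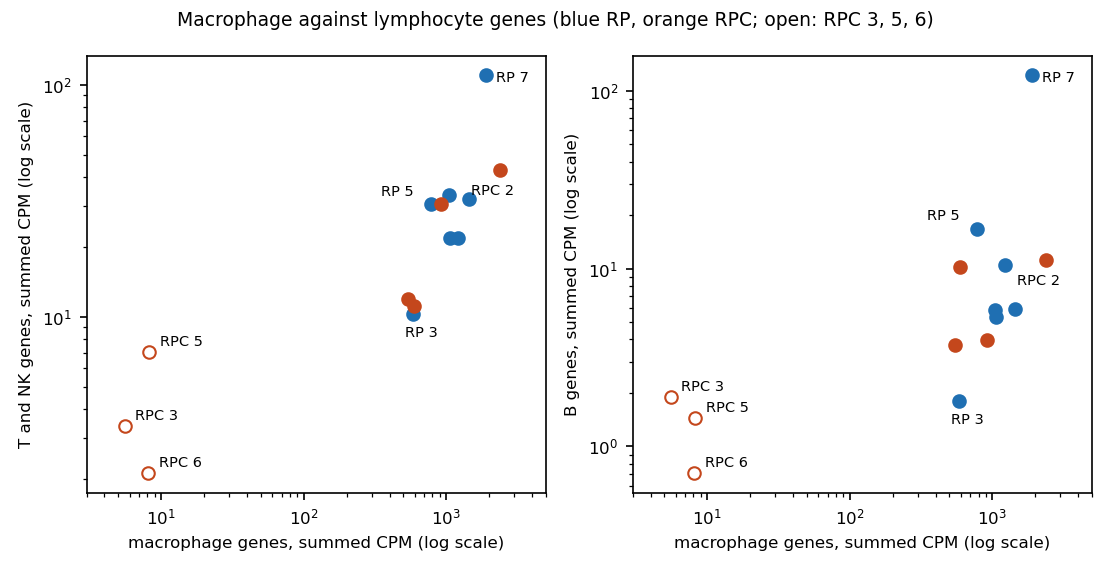
Summed CPM of the macrophage genes (x axis) against the T and NK genes (left) and the B cell genes (right) in each library, both axes on a log scale; blue points are RP, orange points RPC, open points RPC tumours 3, 5 and 6, and some points carry their library name. RP 7, at 1891 CPM of macrophage genes, stands above RPC 2, at 2390 CPM, for both kinds of lymphocyte.

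Single genes stood in for the lists in correlations over libraries, on log2(CPM + 1). RPC 3, 5 and 6 form a cluster of their own and were left out. The 6 pairs were adjusted together by Benjamini-Hochberg. Csf1r and C1qa were correlated over 11 libraries (Pearson r = 0.93, permutation p = 9e-05, adjusted 0.00054, and Spearman rho = 0.84, permutation p = 0.00229, adjusted 0.00687). RP 7 and RPC 7 were the libraries farthest from the median of Csf1r. Without them r was 0.87 (exact permutation p adjusted 0.00921), but rho, at 0.75, did not pass (exact permutation p adjusted 0.0765). Within RP, r was 0.88 (exact permutation p = 0.0125, adjusted 0.0375) and rho 0.86 (exact p = 0.0238, adjusted 0.0714). Without RP 3 and RP 7, r was 0.82, over 5 libraries, where an adjusted p can hardly pass.

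Cd3e and Cd8a were correlated over 11 libraries (r = 0.84, permutation p = 0.0002, adjusted 0.0006; rho = 0.91, permutation p = 0.00029, adjusted 0.00174), with r = 0.84 without RP 7 and RPC 7. Within RP, r was 0.93 (exact permutation p = 0.00179, adjusted 0.0107) and rho 0.93 (exact p = 0.00675, adjusted 0.0405). Without RP 5 and RP 7, r was 0.68 and rho 0.8, again over 5 libraries.

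The remaining pairs did not pass. For Csf1r and Marco, r was 0.19 (permutation p = 0.567, adjusted 0.567) and rho 0.36 (permutation p = 0.273, adjusted 0.273) over 11 libraries, and r was 0.11 without RP 7 and RPC 7. Within RP its r was -0.002 (exact p = 0.996) and rho 0.21 (exact p = 0.662). For Csf1r and its ligand gene Csf1, r was 0.58 (permutation p = 0.0575, adjusted 0.0862) and rho 0.62 (permutation p = 0.048, adjusted 0.072), with r = 0.67 without the same 2 libraries, and within RP r was 0.67 (exact p = 0.0929, adjusted 0.113) and rho 0.75 (exact p = 0.0663, adjusted 0.0994).

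Csf1r and Cd3e, a macrophage and a T cell gene, had r = 0.54 (permutation p = 0.097, adjusted 0.116) and rho = 0.43 (permutation p = 0.195, adjusted 0.234) over 11 libraries, and r = 0.68 without RP 7 and RPC 7. Within RP r was 0.88 (exact p = 0.0369, adjusted 0.0738) and rho 0.75 (exact p = 0.0663, adjusted 0.0994), but r was 0.26 without RP 3 and RP 7. Csf3r and S100a8 had r = 0.60 (permutation p = 0.0524, adjusted 0.0862) and rho = 0.67 (permutation p = 0.0277, adjusted 0.0555), with r = 0.47 without RP 7 and RPC 2, and within RP r was 0.67 (exact p = 0.0938, adjusted 0.113) and rho 0.68 (exact p = 0.11, adjusted 0.131).

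The comparison of genotypes asks whether tumours labelled with the Crebbp genotype differ from RP tumours in immune RNA. Immune genes were mostly lower in RPC, but none of the 36 passed the test. The macrophage genes summed on average to 1145 ± 431 CPM in RP against 638 ± 852 CPM in RPC (SD, n = 7 each), with medians of 1058 and 543 CPM; without RPC 2 the RPC mean was 346 CPM, and without RPC 3, 5 and 6 it was 1112 CPM. The means of the T and NK genes were 37.1 ± 33.0 against 15.6 ± 15.3 CPM. In edgeR's quasi-likelihood test over all 14 libraries, 30 of the 36 genes passed the filter on low counts, and Cd3d, Cd3e, Cd8b1, Nkg7, Gzmb and Prf1 did not. Of these 30, 0 were called at an adjusted p under 0.05, against 2.21% of all 14804 genes tested (1.12% lower and 1.09% higher). Of the 30, 29 had a negative log2 fold change, against 49.8% of all genes, and their median was -0.95 against 0.002 for all genes. The exception was Cxcr2, at 0.02 (SE 0.31). At an unadjusted p under 0.05 there were 5 lower genes, Mmp9, Gzma, Cd79b, Cd3g and Cd79a, against 11.1% of all genes, and 0 higher genes, against 10.3%. For 0 of the 36 genes did the RP and RPC ranges of CPM fail to overlap, against 1.03% of all genes tested.

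Mmp9 came nearest to a call, at -1.82 on the log2 scale (edgeR adjusted p = 0.107, SE 0.60). DESeq2 called it lower (-1.83, adjusted p = 0.0429), the only one of the 30 that it called, against 5.01% of all genes called lower by DESeq2. Limma-voom called 0 of the 30, against 3.40% of all genes, and gave its smallest adjusted p, 0.0534, to Gzma. At an unadjusted p under 0.05 limma-voom had 17 of the 30 lower, against 16.5% of all genes, with a median of -2.33 over the 30. In edgeR Gzma differed by -2.67 on that scale (SE 1.02, adjusted p = 0.154). Limma-voom, which averages logarithms, put Csf1r at -3.97 (adjusted p = 0.0841) where edgeR gave -0.91 (SE 1.03, adjusted p = 0.628).

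The size of the difference rested on few tumours. RPC 3, 5 and 6 were set apart because most of these genes are low in them. Leaving them out therefore raises RPC by choice, and the values without them are a description. Without RPC 3, 5 and 6, edgeR tested 35 of the 36 genes (not Prf1) and called 0, against 0.0716% of all genes (0.0521% lower and 0.0195% higher). Negative log2 fold changes were found for 25 of the 35, against 51.0% of all genes, with a median of -0.28, and only Gzma had an unadjusted p under 0.05 (-1.88, SE 0.85, adjusted p = 0.409), against 7.05% of all genes lower and 4.83% higher at that level. Csf1r then differed by -0.11 (SE 0.26) and C1qa by -0.13 (SE 0.31). Cd68, Mrc1, Itgam, Lyz2, Csf3r, Cd4, Cd8a and Il2rb turned to values between 0.002 and 0.59, with adjusted p of at least 0.823.

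Several other values also moved when a single tumour was left out. Without RP 7 the log2 fold change of Cd79a went from -1.93 (SE 0.90, edgeR adjusted p = 0.23) to -0.27 (SE 0.63, adjusted p = 0.847), that of Cd79b from -2.84 (SE 1.12) to -1.23 (SE 0.91), and that of Cd2 from -1.91 (SE 1.09) to -0.52 (SE 0.96). Without RP 1, Marco went from -2.39 (SE 1.51) to 0.56 (SE 1.29) and Ear2 from -0.93 (SE 0.99) to -0.11 (SE 0.98). Chi3l3, at -2.19 (SE 1.26, adjusted p = 0.333), became -4.03 (SE 1.24, adjusted p = 0.0981) without RPC 2, and S100a8 went from -2.21 (SE 1.18) to -1.48 (SE 1.17) without RP 1. Cd3g was at -2.52 (SE 1.13, adjusted p = 0.218) and at -2.06 (SE 1.15) without RP 5, which had its highest level.

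**Figure D5:**
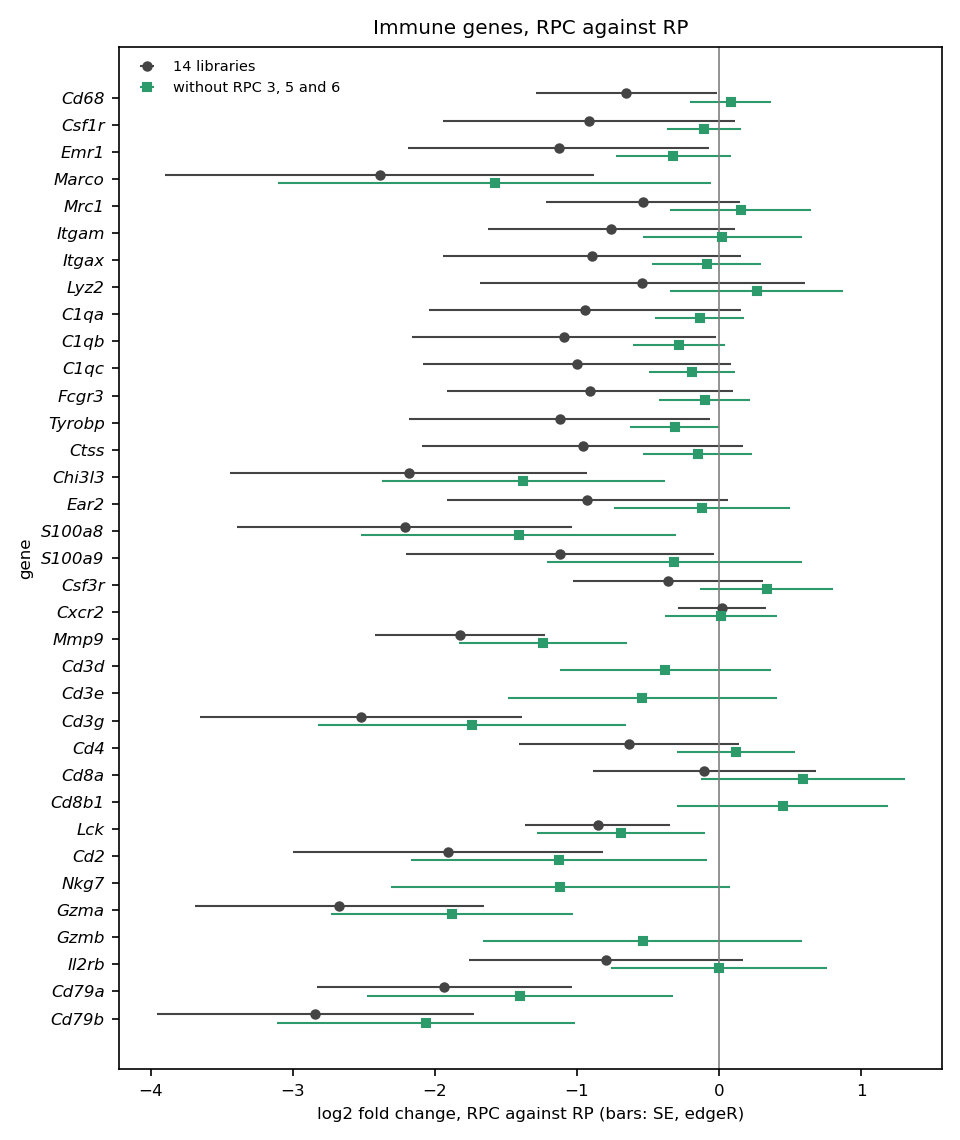
Log2 fold change of RPC against RP for each gene that could be fitted, by edgeR over all 14 libraries (dark circles) and without RPC tumours 3, 5 and 6 (green squares), with bars of 1 SE. The dark points lie left of 0 for 29 of 30 genes, and the green points lie nearer to 0 for nearly all. The tumours left out of the green fit are known by low levels of these genes.

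Related genes that are not among the 36 were read from lists by role, and none was called in any list, against 2.21% of all genes. All 10 pan-leukocyte genes were tested and had negative values, with a median log2 fold change of -1.17, and 2 had an unadjusted p under 0.05, both lower, against 11.1% of all genes. Coro1a, an actin regulator of leukocytes that tumour cells can share, was nearest to a call at -1.18 (SE 0.30, edgeR adjusted p = 0.0514). It was at 38.7, 79.9 and 167 CPM (lowest, median, highest) in RP and 28.2, 52.3, 37.5 and 43.5 CPM in RPC tumours 1, 2, 4 and 7, and it was still at 19.4, 26.4 and 31.2 CPM in RPC 3, 5 and 6, where Ptprc (CD45) was at 0.30, 0 and 0.088 CPM. Lcp1 and Laptm5, the other abundant genes of this list, had log2 fold changes of -1.03 (SE 0.77) and -0.98 (SE 0.98).

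Of 16 other myeloid genes, 14 were tested and 13 had negative values, with a median of -0.85. Mpeg1, a pore-forming protein of phagocytes, ran from 73.2 to 240 CPM in the 11 tumours and reached at most 0.26 CPM in RPC 3, 5 and 6. Cybb, the catalytic subunit of the phagocyte oxidase, ran from 12.3 to 90.4 CPM and reached at most 0.099 CPM. Cd163, a haemoglobin scavenger receptor, was at 14.8 CPM in RPC 4 and at most 2.26 CPM elsewhere; it was chosen after its values were seen.

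Of 17 other T and NK genes, 3 were tested, all with negative values; Zap70 differed by -2.64 (SE 0.77, edgeR adjusted p = 0.0774). Of 7 other B and plasma cell genes, 4 were tested, all with negative values, from -4.01 (SE 1.32, adjusted p = 0.109) for Ms4a1 to -0.03 (SE 1.09) for Igj. Of 9 other neutrophil genes in the files, Ltf and Il1b were tested, at -2.87 (SE 1.29) and -0.72 (SE 1.03). Mast cell genes summed to at most 1.15 CPM in any library. Of 8 dendritic cell genes, 4 were tested and 3 had negative values; Zbtb46, a transcription factor of dendritic and endothelial cells, was at 13.0 and 17.97 CPM in RPC 3 and RPC 5, above the 1.33 to 7.57 CPM of the other 11.

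Ligands and chemoattractants were measured from any cell of the tumour. Of 17 such genes 9 were tested, and 8 had negative values, with a median log2 fold change of -0.97. Csf1, which encodes the ligand of Csf1r, was at 10.7, 24.8 and 37.0 CPM (lowest, median, highest) in RP and at 9.65, 37.8, 9.70 and 18.9 CPM in RPC tumours 1, 2, 4 and 7. In RPC 3, 5 and 6 it was at 2.39, 1.24 and 114 CPM, so the highest Csf1 of the series was in RPC 6, where Csf1r had no read. Cxcl9, an interferon-induced attractant of T cells, was at 50.9 CPM in RP 7 and at most 7.20 CPM elsewhere. Ccl5, made by activated T and NK cells, was at 25.4 CPM in RP 7 and at most 8.41 CPM elsewhere. Cxcl16 ran from 13.4 to 45.1 CPM in the 11 tumours and reached at most 0.53 CPM in RPC 3, 5 and 6, while Cx3cl1 was at 9.24, 7.28 and 5.46 CPM there against 11.02 to 51.1 CPM.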

How the data were processed

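Each library is polyadenylated RNA of 1 primary tumour. The deposited files hold raw read counts per gene, made with bcl2fastq 1.8.2, TopHat2 2.0.12 and HTSeq 0.6.1 on mm9, per the submitters' processing notes; for settings, annotation and strand use, nothing is given in the sources used here. Reads of overlapping antisense genes, where there are any (Csf1r and Cd3e may be such cases), therefore cannot be told apart. The 5 rows that name no gene (25.9% to 31.5% of a file) were left out of totals and tests. CPM is the count divided by the total of gene rows.

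Counts were tested in R 4.3.3 with edgeR 4.0.16 (filterByExpr, minimum count 10 and total 15; TMM; quasi-likelihood F test for genotype, no covariate; Benjamini-Hochberg over all genes tested; called under 0.05). The SE is the log2 fold change divided by the root of F. limma-voom 3.58.1 and DESeq2 1.42.0 were alternatives, with other scalings, other filters, a block for the tumour number and each tumour left out. Correlations used 100000 permutations over 11 libraries and exact pairings within RP. Scripts were tested on simulated data.

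The labels do not say that tumours came from separate mice. The p-values therefore speak only to the spread among these tumours, some of which may share a mouse and not be independent. Tumour numbers were not taken as pairs. The genes, the lists, the motifs and the separate treatment of RPC 3, 5 and 6 were chosen with earlier results of these data known. Named genes were all 36 members, with fuller values for 21 chosen by role and for any other member called or opposite to its list. For many of the 21, RP is given as lowest, median and highest or as a range. Also named were the most abundant genes of each related list, and Crebbp. Cxcl9, Ccl5, Ptprc, Sfpi1 and Cd163 were named after their values were seen. Symbols follow the files (Emr1 is now Adgre1, Chi3l3 is Chil3, Sfpi1 is Spi1).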

Additional observations from a re-analysis of the deposited data

Results flagged for a closer look

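A library was flagged where its gap to the nearest library of its genotype, divided by the range of the 7, passed Dixon's value of 0.568. The 36 genes (72 groups) and the list sums with the macrophage share (10 groups) were screened in each genotype and gave 32 flags. Chance flags about 1 in 20 groups if values are normally distributed. CPM need not be, and genes of 1 cell type are not independent, so the number of flags due to chance is not known.

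RP 7 was the highest of its genotype for most flagged genes. Among lymphocyte genes it was flagged for Cd3d (4.63 CPM), Cd3e (6.45), Cd4 (7.51), Cd8a (4.69), Cd8b1 (2.07), Lck (21.2), Cd2 (18.2), Nkg7 (11.9), Gzmb (5.45), Prf1 (2.69), Il2rb (7.76), Cd79a (65.1) and Cd79b (56.9), and for the T and NK sum (110 CPM) and the B sum (122 CPM). Among myeloid genes it was flagged for Csf1r (64.3 CPM), Itgam (23.2), C1qb (165), C1qc (148) and Csf3r (8.32).

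RP 1 was flagged as highest for Marco (184 CPM), Mrc1 (45.1), Ear2 (11.2) and Cxcr2 (19.9). RPC 2 was flagged as highest of RPC for Cd68 (70.6 CPM), Lyz2 (1296), Ctss (281), Chi3l3 (75.9), Cd3g (3.84), Cd2 (4.20) and the macrophage sum (2390 CPM). RPC 1 was flagged as highest of RPC for Cxcr2 (9.98 CPM). RPC 3, 5 and 6 gave no flag, since 3 low libraries of 7 leave no gap beside a single one.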

How the results depend on the processing

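edgeR called 327 genes of all tested. The count was 1431 with DESeq2, 503 with limma-voom, 11 without RPC 3, 5 and 6, and from 51 to 898 when each tumour was left out in turn. Of the 36 immune genes it called 0 under each alternative, as did limma-voom, and DESeq2 called 1 (Mmp9, lower). The smallest adjusted p of an immune gene in edgeR ran from 0.0759 (without RP 3) to 0.409 (without RPC 3, 5 and 6). With upper-quartile or DESeq2 median-ratio scaling, either other filter or limma-voom, no log2 fold change of the tested members changed sign.

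Signs changed elsewhere. Without RPC 3, 5 and 6 the log2 fold changes were 0.082 for Cd68, 0.15 for Mrc1, 0.024 for Itgam, 0.26 for Lyz2, 0.34 for Csf3r, 0.12 for Cd4, 0.59 for Cd8a and 0.0017 for Il2rb. Marco was at 0.56 with DESeq2 and, with each tumour left out, ran from -3.08 (without RPC 2) to 0.56 (without RP 1). Left out likewise, Cxcr2 ran from -0.077 (without RP 2) to 0.39 (without RP 1), Cd8a from -0.78 (without RPC 2) to 0.52 (without RP 7) and Il2rb from -1.31 (without RPC 2) to 0.058 (without RP 7). Cd8a also turned positive without RPC 3, 5 or 6, and Cxcr2 negative without RP 3, 4, 6 or 7 or RPC 1. In RP, the correlation of Csf1r with Marco was 0.059 with a pseudocount of 0.1, and those of Csf1r with C1qa and Cd3e with Cd8a were 0.82 and 0.68 without the 2 farthest libraries, which leaves 5, where an adjusted p can hardly pass. The cause of these changes was not tested.

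With the tumour number as a replicate block, edgeR called 74 genes and 0 of the 36 (7 lower at an unadjusted p under 0.05, of 1897 among all genes); the median log2 fold change of the 30 tested members went from -0.95 to -2.38, that of Csf1r to -2.62 and that of Lyz2 to -3.40. Same-numbered RP and RPC tumours had correlations of deviations between -0.05 and 0.32, over 0.1 for numbers 3, 5 and 7 and not for the other 4, and RP 3 and RP 5 alone among RP tumours correlated best with their own number, so the numbers were not taken as pairs. Depth limits the T and NK genes: several rest on fewer than 10 reads in most libraries, and in RPC 3, 5 and 6 a gene at 0 could be as high as 0.155 to 0.298 CPM.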
